A study of Mus musculus with 2 samples.

Results

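The genes described here encode the collagens, the laminin chains, the integrin chains and fibronectin of mouse somitic gastruloids. They were taken by symbol: 87 of 32285 genes had a collagen, laminin or integrin name of the standard form or were Fn1. Of these, 79 had at least 10 UMIs (unique molecular identifiers, each counting 1 captured transcript) over the kept cells of both libraries, against 19470 of all genes. The 79 comprised 41 of 44 collagen genes, all 11 laminin chains, 23 of 27 integrin chains, Fn1, and 3 of 4 genes that carry an integrin name but encode no chain (Itgb1bp1, Itgb1bp2 and Itgb3bp, with Itgbl1 the one left out). Just inside the limit stood Col10a1 with 11 UMIs and Lamc3 with 12, and just outside it Col8a1 with 9. The other genes left out were Col8a2 with 5, Itgb2l with 4, Itgb6 and Itgbl1 with 3 each, Itgad with 2, and Col4a3 and Itgax with 0.

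A gastruloid is a cultured clump of embryonic stem cells that takes on cell types of the early embryo. Both libraries came from somitic gastruloids of the E14_triple reporter line, whose own Zeb2 gene carries an HA-FKBP12F36V degron tag, so the controls hold the tagged protein too. Each aggregate began with 300 cells, was given 3 µM CHIR99021, which activates WNT signalling, from 48 h, and lay in 10% Matrigel from 96 h. One library was labelled untreated (the series text names DMSO as the control), and the other received 100 nM dTAG-13, which directs the tagged Zeb2 to degradation, at 72 and 96 h. Each library pooled about 32 gastruloids, so there was 1 library per group, no replicate check and no test between groups. Zeb2 is a transcription factor that represses epithelial genes. The labels do not state when the aggregates were harvested.

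Laminins are trimers of an alpha, a beta and a gamma chain and form, with type IV collagen, the sheet-like basement membrane under epithelia. Fibronectin and the fibrillar collagens fill the space between mesenchymal cells. Integrins are receptors of an alpha and a beta chain that bind these proteins and link them to the actin cytoskeleton. In the embryo, fibronectin and its integrin alpha 5 beta 1 are needed for somites to form, and the laminin of chains alpha 1, beta 1 and gamma 1 is among the earliest basement membrane proteins. Matrigel is itself a basement membrane extract of laminin and type IV collagen, and supplies protein that RNA counts do not see.

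After removal of low-quality barcodes and likely doublets, 6231 untreated and 6688 dTAG-13 cells were kept, with 140019633 and 151601709 UMIs and medians of 20073 and 20207 UMIs per cell. The libraries shared 14 cell barcodes. Levels are given in CPM, the UMIs of a gene per 1000000 UMIs of the same cells. The Zeb2 transcript was at 94.6 CPM in the dTAG-13 library (93.0 to 96.1, 95% Poisson interval) and 67.9 CPM in the untreated one (66.5 to 69.3), and does not check the labels, since dTAG-13 acts on the protein. Cells were assigned to 10 gates by at least 2 UMIs of a marker gene, each cell going to the first gate it met in a set order: Zfp42 (naive pluripotent cells), Sox17 (endoderm), Foxa2 (notochord and node), Sfn (non-neural ectoderm), Pim2, Meox1 (somite), Tbx6 (presomitic mesoderm), T together with Sox2 (neuromesodermal progenitors), T, and Sox2. Cells with at least 2 UMIs of the endothelial gene Cdh5, 24 untreated and 14 dTAG-13, were set aside first. The gates held 5091 and 5340 cells. Of 5 further markers for each gate, all 5 were at least 2-fold higher in the gate than in the other gates in both libraries for Meox1, Foxa2, Sox17 and Zfp42. For Tbx6 and Sfn 4 were, for T and for T with Sox2 3, for Pim2 2 and for Sox2 only Sox1, so the Pim2 and Sox2 gates are called by their gene alone. T and T with Sox2 shared the same list, and Cdx4, Wnt3a and Fgf8 passed in both, so these markers do not tell those gates apart. The gates differed in size between the libraries, from 3.31% to 15.9% of cells for Sfn, 2.57% to 8.12% for Pim2, 6.69% to 1.58% for Tbx6 and 14.0% to 8.37% for Meox1.

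Matrix and integrin genes differed widely between the gates. A gene was called marked in a gate when its CPM there was at least 2-fold that of the other 9 gates together, with 1 CPM added to each level, in each library on its own. This held for 25 of the 79 members (31.6%) and for 11.1% of all genes. The Meox1 gate had the most marked members, 11 of 79 (13.9%, against 1.39% of all genes), followed by the Sox17 gate with 7 (8.86%, against 2.48%). The Zfp42 gate had 4 (5.06%, against 4.83%) and the Tbx6 gate 4 (against 0.616%). T and Foxa2 had 2 each (against 0.473% and 0.945%), T with Sox2 and Sfn 1 each (against 0.19% and 0.986%), and Sox2 and Pim2 had 0 (against 0.236% and 0.38%). Of the 25, 19 were marked in 1 gate, 5 in 2 and Col12a1 in 3. Many members were scarce, with 35 of 79 below 1 CPM in both libraries. With 5 CPM added in place of 1, 8 members and 5.00% of all genes were marked, with 4 members each in the Meox1 and Sox17 gates and 2 in Tbx6.

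**Figure D1:**
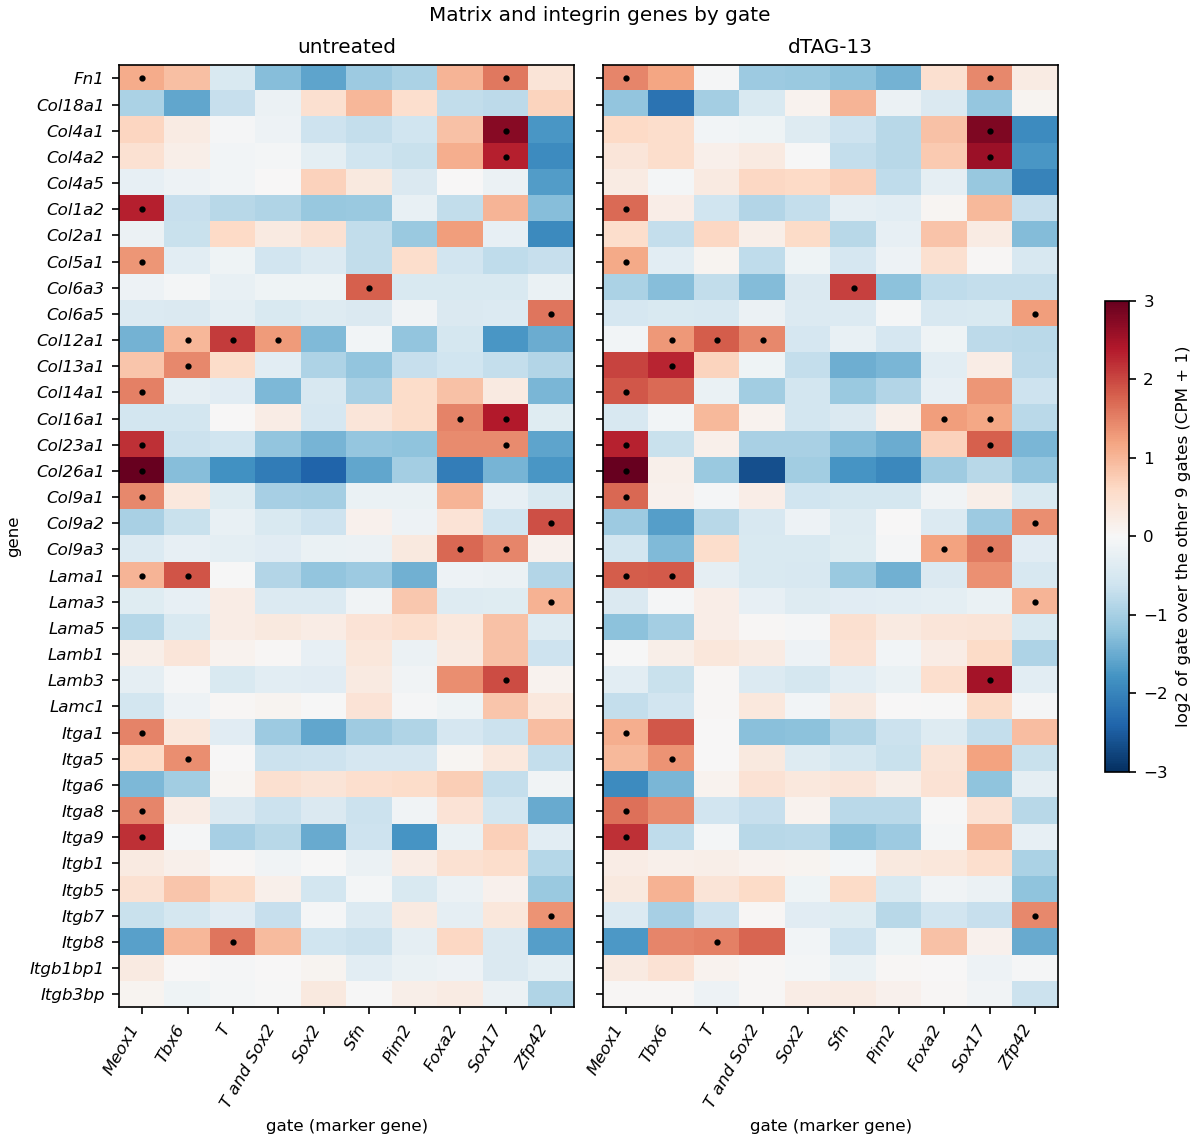
Colour shows the log2 of each gene's CPM (plus 1) in a gate over the other 9 gates together, for the untreated library on the left and the dTAG-13 library on the right, with genes in rows and gates in columns. Black points mark genes at least 2-fold higher in both libraries; they are densest in the Meox1 and Sox17 columns, and the colour scale ends at 3, below the Meox1 value of Col26a1 in both libraries (3.84 and 3.67).

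Fibronectin (Fn1, ENSMUSG00000026193, chromosome 1, 71585520 to 71653200, minus strand, GRCm38) was highest in the Sox17, Foxa2, Meox1 and Tbx6 gates and lowest in the Sox2, Sfn, Pim2 and T with Sox2 gates. In the untreated library it stood at 312 CPM in the Sox17 gate, 211 in Foxa2, 193 in Meox1 and 188 in Tbx6, at 136 in Zfp42 and 79.7 in T, and between 45.1 and 56.3 in T with Sox2, Sox2, Sfn and Pim2. In the dTAG-13 library the Sox17, Meox1 and Tbx6 gates led, at 253, 230 and 217 CPM, Foxa2 was at 132, and Pim2 was lowest at 38.7. Fn1 was marked in the Meox1 and Sox17 gates. Over whole libraries it had 117 CPM without and 104 with dTAG-13, a log2 ratio of -0.17 (95% counting interval -0.20 to -0.14). Within gates it went both ways. It was higher with dTAG-13 in Meox1 (log2 ratio 0.25, 0.18 to 0.32), Tbx6 (0.21), T (0.26) and Sox2 (0.15, 0.04 to 0.26), and lower in Foxa2 (-0.68, -0.81 to -0.56), Pim2 (-0.53), Sox17 (-0.30) and Zfp42 (-0.27).

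The collagen IV genes differed in where they were highest. Col4a1 and Col4a2, whose products form the common collagen IV trimer of basement membranes, lie head to head on chromosome 8, with RefSeq start sites 21 bases apart. Both were marked in the Sox17 gate. Col4a1 there had 228 CPM (209 to 248.7) in the untreated and 181 CPM in the dTAG-13 library, against at most 66.7 and 53.0 CPM in any other gate, both in Foxa2. Col4a2 was 99.3 and 90.7 CPM in the Sox17 gate and at most 43.0 and 28.2 CPM elsewhere, again in Foxa2. The lowest gate of both genes in both libraries was Zfp42, at 11.3 and 8.88 CPM for Col4a1 and 5.33 and 5.23 CPM for Col4a2.

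Col4a5 and Col4a6 encode minor collagen IV chains and lie head to head on the X chromosome, with start sites 1343 bases apart. Neither was marked in a gate. Col4a6 was highest in the Sfn gate, at 10.6 and 11.5 CPM, followed in both libraries by Sox2 at 10.5 and 8.95 CPM (the untreated counting intervals of these gates overlap), and stood at 1.75 and 2.42 CPM in the Sox17 gate. Col4a5 stood at 14.6 and 15.0 CPM in Sox2, 12.97 and 15.9 in Sfn and 10.6 and 16.6 in T with Sox2, and at 9.18 and 4.35 CPM in the Sox17 gate. The gate with the most Col4a1 and Col4a2 was among the lower ones for Col4a6 in both libraries. Of the remaining chains, Col4a4 was at 0.21 CPM in both libraries and Col4a3 had no UMI.

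Col18a1, a basement membrane collagen whose end fragment is endostatin, was highest in the Sfn gate. There it had 133 CPM in the untreated (123 to 144) and 173 CPM in the dTAG-13 library (168 to 178). It was lowest in Tbx6, at 24.04 and 21.6 CPM. Pluripotent Zfp42 cells held 103 and 106 CPM. It was not marked in any gate. Over whole libraries it was 68.2 against 99.5 CPM, a log2 ratio of 0.54 (0.51 to 0.58). With each gate given the same share in both libraries, so that only levels within gates differ, the ratio was 0.26. With mean gate levels and each library's own shares it was 0.31. Within gates it was higher with dTAG-13 in 8 of 10, with the largest ratio in Foxa2, at 41.7 against 76.6 CPM (0.86, 0.63 to 1.13).

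**Figure D2:**
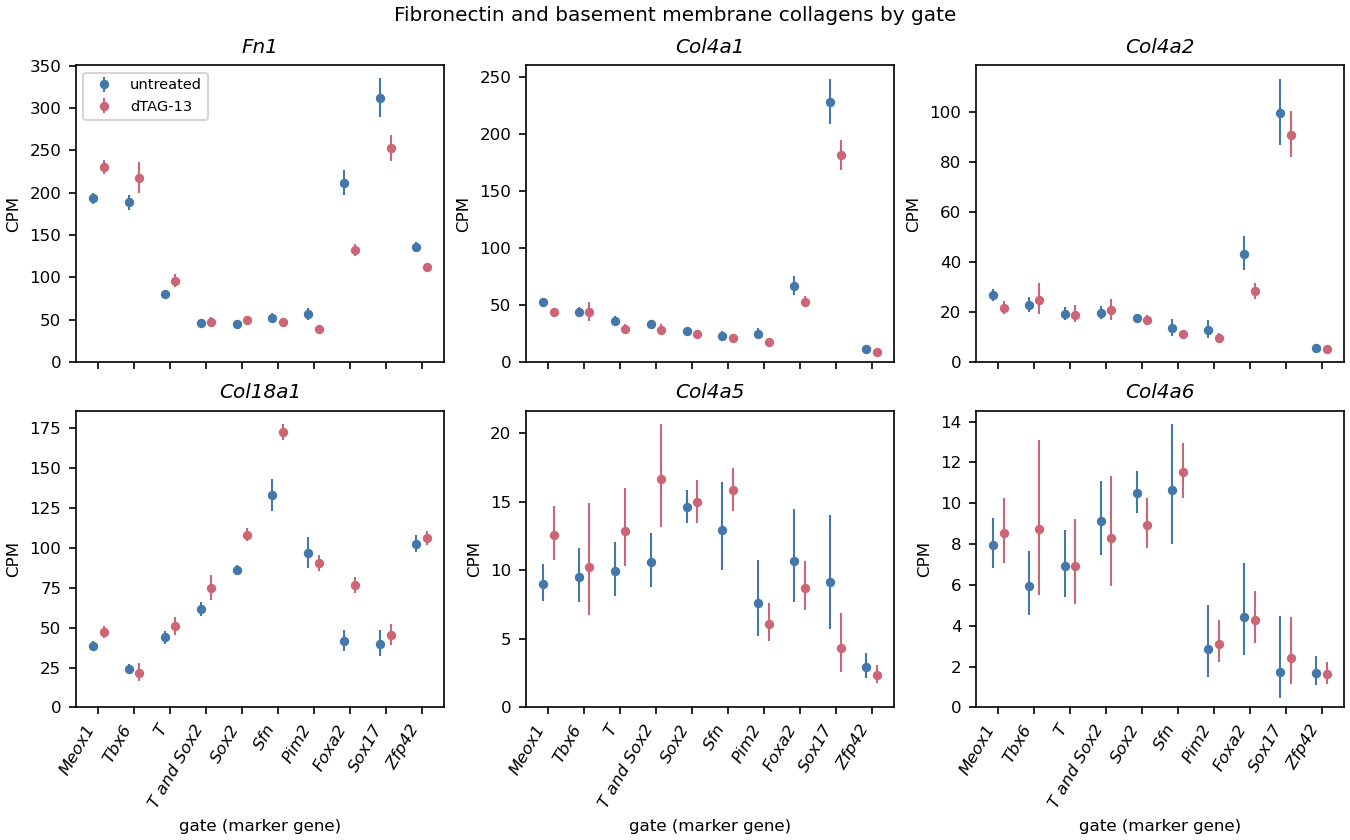
CPM of Fn1 and 5 basement membrane collagen genes (y axis, from 0) in each gate (x axis), with untreated in blue and dTAG-13 in red and bars for 95% Poisson intervals of 1 library each. Col4a1 and Col4a2 peak in the Sox17 gate (228 and 99.3 CPM untreated), while Col18a1 and Col4a6 peak in the Sfn gate.

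Fibrillar collagens, the rope-forming collagens of connective tissue, were scarce. Col2a1, the main collagen of cartilage and of the notochord sheath, was the only one of the 11 above 10 CPM, at 13.8 CPM untreated and 12.6 CPM with dTAG-13. It was highest in the Foxa2 gate in both libraries, at 33.9 and 21.7 CPM, and lowest in Zfp42 untreated (3.41 CPM). Col1a2 and Col5a1, chains of collagens I and V, were marked in the Meox1 gate, at 8.99 and 4.73 CPM and at 11.2 and 9.76 CPM. Col3a1, a collagen of loose connective tissue, had 0.31 CPM untreated and 0.13 CPM with dTAG-13.

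Several smaller collagens marked single lineages. Col26a1 was the most gate-restricted member, at 45.3 CPM untreated (42.4 to 48.3) and 33.4 CPM with dTAG-13 (30.4 to 36.7) in the Meox1 gate, and at most 4.29 and 5.68 CPM in any other gate. Col23a1, a membrane-spanning collagen, was marked in Meox1 (31.4 and 29.7 CPM) and Sox17 (28.4 and 27.3 CPM). It was also high in the untreated Foxa2 gate (27.9 CPM) but lower there with dTAG-13 (12.5 CPM). Col12a1, a collagen that coats fibrils, was marked in T (9.97 and 4.30 CPM), T with Sox2 (6.06 and 3.33) and Tbx6 (5.12 and 3.03). The membrane-spanning Col13a1 was marked in Tbx6, at 16.4 and 23.5 CPM. In the Meox1 gate Col14a1 (5.56 and 4.80 CPM) and Col9a1 (3.67 and 4.20 CPM) were marked as well. Col14a1 was 1.53 and 5.30 CPM in Tbx6, its highest gate with dTAG-13. Col16a1 and Col9a3 were marked in both the Foxa2 and the Sox17 gate, Col6a3, a collagen VI chain, in Sfn (3.29 and 5.17 CPM), and Col9a2 (5.12 and 5.19 CPM) and Col6a5 in Zfp42.

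The laminin chains Lama1, Lama5, Lamb1, Lamb2 and Lamc1 were expressed in every gate, and the alpha chains Lama1 and Lama5 divided the gates. Lama1 (chromosome 17, 67697259 to 67822647), found in the earliest embryonic laminin, was marked in Tbx6 (32.1 CPM untreated and 24.6 with dTAG-13) and Meox1 (17.9 and 20.2 CPM). Lama5, the alpha chain of many epithelial basement membranes, was lowest in those same gates: 9.76 and 10.7 CPM in Meox1, and 12.4 and 11.7 CPM in Tbx6. In the other 8 gates Lama5 lay between 13.2 and 31.9 CPM untreated and between 18.8 and 32.2 CPM with dTAG-13, with Sox17 highest untreated and Sox17 and Sfn level with dTAG-13 (32.17 and 32.15 CPM). Lama1 was lowest in Pim2, at 3.10 and 1.96 CPM.

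The beta and gamma chains shared by both trimers varied less. Lamb1 ranged from 22.3 CPM in Zfp42 to 61.2 in Sox17 untreated, and from 24.4 to 63.4 with dTAG-13 in the same gates. Lamc1 ranged from 15.1 CPM in Meox1 to 38.0 in Sox17 untreated, and from 16.2 to 39.2 with dTAG-13 in the same gates. Lama3 and Lamb3, chains found under stratified epithelia, were scarce, each below 1 CPM untreated. Lamb3 was marked in the Sox17 gate (3.94 and 6.77 CPM) and Lama3 in Zfp42.

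**Figure D3:**
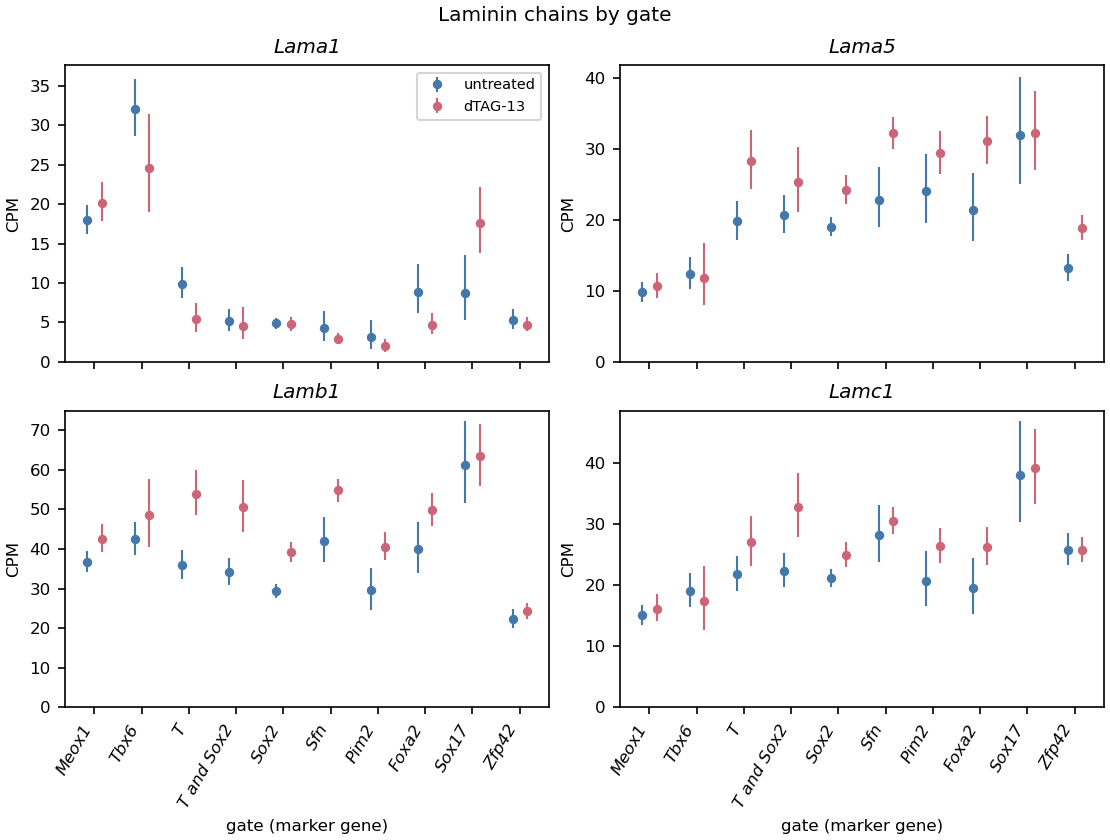
CPM of Lama1, Lama5, Lamb1 and Lamc1 (y axis, from 0) in each gate (x axis), untreated in blue and dTAG-13 in red, with 95% Poisson intervals. Lama1 is highest and Lama5 low in the Tbx6 gate, and Lamb1 is higher with dTAG-13 in all 10 gates.

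Among integrins, the beta chain Itgb1, the partner of most matrix-binding alpha chains, was present in every gate. It ranged from 69.8 CPM in Zfp42 to 171 CPM in Sox17 untreated and from 71.2 to 175 CPM with dTAG-13. Its main laminin-binding partner Itga6 was lowest in the Meox1 gate, at 21.5 and 17.9 CPM, and also low in Tbx6 (25.0 and 24.2 CPM) and Sox17 (30.2 and 27.6 CPM). In the other 7 gates Itga6 lay between 46.7 and 82.4 CPM untreated and between 54.4 and 84.2 CPM with dTAG-13. The fibronectin receptor chain Itga5 ran the other way: it was marked in Tbx6, at 12.4 and 11.7 CPM, and stood at 7.01 and 8.18 CPM in Meox1 and 3.17 and 3.10 CPM in Sox2. Thus the Tbx6 and Meox1 gates, where Fn1 and Lama1 were high, were high in Itga5 and low in Itga6 and Lama5. The Sox17 gate shared part of this, with Fn1 at 312 and 253 CPM and low Itga6. Its Itga5 was 6.12 and 10.4 CPM and its Lama1 8.75 and 17.7 CPM, but its Lama5 was high (31.9 and 32.17 CPM).

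The Meox1 gate was marked by 3 alpha chains that pair with beta 1. Itga9 was 10.7 and 11.03 CPM there, Itga1, of a collagen receptor, 6.72 and 4.35 CPM, and Itga8, of a receptor for the tripeptide RGD, 6.09 and 5.63 CPM. In Tbx6 Itga1 was 3.48 and 8.71 CPM and Itga8 2.86 and 5.68 CPM, so with dTAG-13 Tbx6 was the highest gate for both. Itgb8, a partner of alpha v that activates latent TGF-beta, was marked in the T gate, at 17.6 and 11.2 CPM. It was 12.3 and 11.4 CPM in Tbx6 and 11.9 and 13.5 CPM in T with Sox2, but 1.64 and 0.53 CPM in Meox1. Itgb5, another partner of alpha v, was highest in Tbx6 (33.1 and 48.1 CPM), and Itgav itself lay between 5.72 and 12.0 CPM in all gates of both libraries. Of the leukocyte integrins, Itgal, Itgam and Itgb2 were each below 1 CPM in both libraries. Itgae was at 1.66 and 1.43 CPM, with 3.69 and 3.28 CPM in its highest gate, Zfp42, and Itgb7 was marked in Zfp42.

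**Figure D4:**
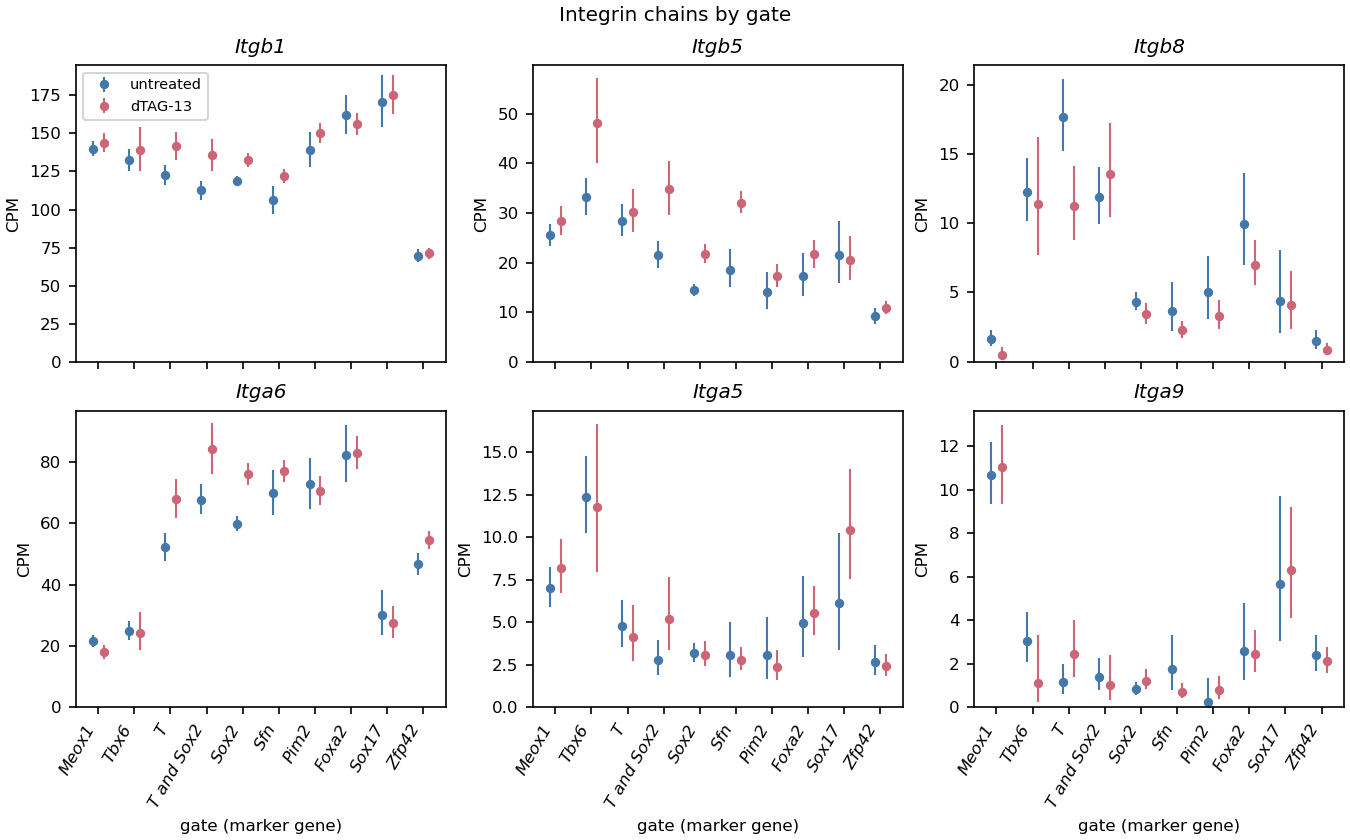
CPM of 6 integrin chains (y axis, from 0) in each gate (x axis), untreated in blue and dTAG-13 in red, with 95% Poisson intervals. Itga6 is low in the Meox1, Tbx6 and Sox17 gates, Itga5 is highest in Tbx6 untreated (12.4 CPM) and Itga9 in Meox1 (10.7 CPM).

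Markers of other cell types were read in the same gates. In the Sox17 gate, where Col4a1, Col4a2 and Lamb1 were highest, the summed CPM of 5 parietal endoderm markers was 48.5 untreated and 57.6 with dTAG-13, the highest of the 10 gates. The lowest was 1.74 and 3.12 CPM, in Sfn. Pth1r made up 42.0 and 48.4 CPM of the Sox17 sums, and Thbd was at 0. The sum of 5 visceral endoderm markers in that gate was 3.06 and 13.8 CPM, with Cubn at 0 and 7.74, Amn at 1.31 and 4.11 and Afp at 0 in both. The sum of 4 blood markers was also highest there, at 12.2 and 18.4 CPM, from Gata1 (5.68 and 6.05) and Runx1 (6.56 and 12.3), with the globins Hbb-bh1 and Hba-x at 0. The 5 endothelial markers summed to 11.8 and 9.19 CPM. The part of such cells in the levels of the Sox17 gate was not tested.

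Over whole libraries few members differed between dTAG-13 and untreated by 1.5-fold. On the log2 scale with 1 CPM added, 4 of 79 (5.06%) were at least 1.5-fold higher, against 2.32% of all genes, and 3 (3.80%) at least 1.5-fold lower, against 0.832%. The median log2 ratio of the members was -0.0013, and that of all genes 0.02. With 5 CPM added no member passed in either direction. DESeq2 size factors gave 5 lower members instead of 3, Lama1 among them. The members past 1.5-fold were all at most 9.76 CPM in each library.

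Among the higher members were Col16a1, at 0.81 against 2.01 CPM (0.73), Col6a3, at 0.37 against 1.25 CPM (0.71), and Itga3, of a laminin receptor, at 1.52 against 3.05 CPM (0.68, counting interval 0.77 to 1.24). The lowest were Col12a1, at 2.11 against 0.67 CPM (-0.90), Col26a1, at 9.76 against 5.47 CPM (-0.73, -0.96 to -0.71), and Itgb8, at 5.80 against 3.46 CPM (-0.61). With equal gate shares 1 member in each direction was past 1.5-fold, the lower one Col12a1 (-0.64), against 0.853% of all genes higher and 0.282% lower. Col26a1 then stood at -0.35, and its shares alone gave -0.45.

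By family, most laminin chains had ratios above 0 and most fibrillar collagens ratios below 0. The 11 laminin chains had a median log2 ratio of 0.26, with 9 above 0 and 2 below. That median is the ratio of Lamb3, on 42 untreated and 84 dTAG-13 UMIs. The counting interval lay above 0 for 6 chains, below 0 for 1 and spanned 0 for 4. With equal gate shares the median of the laminin chains was 0.04. The 11 fibrillar collagens had a median of -0.20, with 9 below 0 and none past 1.5-fold, and a median of -0.09 with equal gate shares. Of all 19470 genes, 11421 had ratios above 0 and 8049 below, with a median of 0.02 on both scales. The 41 collagens had a median of -0.05 (2 higher and 2 lower) and the 23 integrin chains one of -0.0013 (1 higher, Itga3, and 1 lower, Itgb8).

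The alpha chains Lama5 and Lama1 differed in opposite directions over the whole libraries. Lama5 was 16.8 against 24.4 CPM, a ratio of 0.52 (0.47 to 0.62), while Lama1 was 10.5 and 6.90 CPM, one of -0.54 (-0.72 to -0.49). For Lama5 most of the difference lay within gates, at 0.35 with equal gate shares and 0.17 from shares alone. For Lama1 it was the reverse, at -0.13 and -0.42. Lama5 was higher with dTAG-13 in 9 of 10 gates, and its counting interval lay above 0 in 5. Lama1 was lower in 8 of 10 gates, with the interval below 0 in 2, and higher in Meox1 and Sox17, with the interval above 0 in Sox17 (8.75 against 17.7 CPM). The intervals below 0 were those of T (9.88 against 5.38 CPM) and Foxa2 (8.87 against 4.73 CPM).

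Lamb1 and Lamc1 were higher with dTAG-13 as well. Lamb1 was 33.8 against 42.7 CPM (log2 ratio 0.33, 0.28 to 0.39) and was higher in all 10 gates, with the interval above 0 in 7. Equal gate shares gave 0.35. Its largest ratios were in T, at 35.9 against 53.9 CPM (0.58), and in T with Sox2, at 34.3 against 50.5 CPM (0.55). Lamc1 was 21.1 against 26.1 CPM (0.30, 0.24 to 0.38) and was higher in 8 of 10 gates.

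Col4a1 and Col4a2 were lower with dTAG-13, as was Lama1, but unlike Lama5, Lamb1 and Lamc1. Col4a1 was 40.7 against 33.7 CPM (-0.27, -0.33 to -0.22), lower in 9 of 10 gates, with the interval below 0 in 7. Its ratio was -0.24 with equal gate shares and -0.05 from shares alone. Col4a2 was 21.9 against 18.7 CPM (-0.22, -0.31 to -0.16), lower in 8 gates. Col4a5 and Col4a6 stood at 0.02 (-0.08 to 0.13) and -0.07 (-0.20 to 0.05). None of these reached 1.5-fold over the whole libraries.

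Itgb5 differed more within gates than over the whole libraries. It was 19.9 against 23.4 CPM (0.22, 0.16 to 0.31), with 0.40 at equal gate shares and -0.13 from shares alone. The largest ratios were in Sfn, at 18.6 against 32.1 CPM (0.76, 0.48 to 1.11), in T with Sox2, at 21.5 against 34.7 CPM (0.67), and in Sox2, at 14.5 against 21.8 CPM (0.56). Itga6 was 48.9 against 62.2 CPM (0.34, 0.30 to 0.39), with 0.19 at equal gate shares and 0.16 from shares alone. Its interval lay above 0 in T, T with Sox2, Sox2 and Zfp42, and below 0 in Meox1. Itgb1 was 122 against 129 CPM (0.08, 0.05 to 0.11). The name-sharing Itgb3bp, a centromere protein, was 66.2 against 66.6 CPM. Itgb1bp1, which encodes a protein that binds the beta 1 tail, was 30.1 against 27.7 CPM (-0.12, -0.19 to -0.06).

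**Figure D5:**
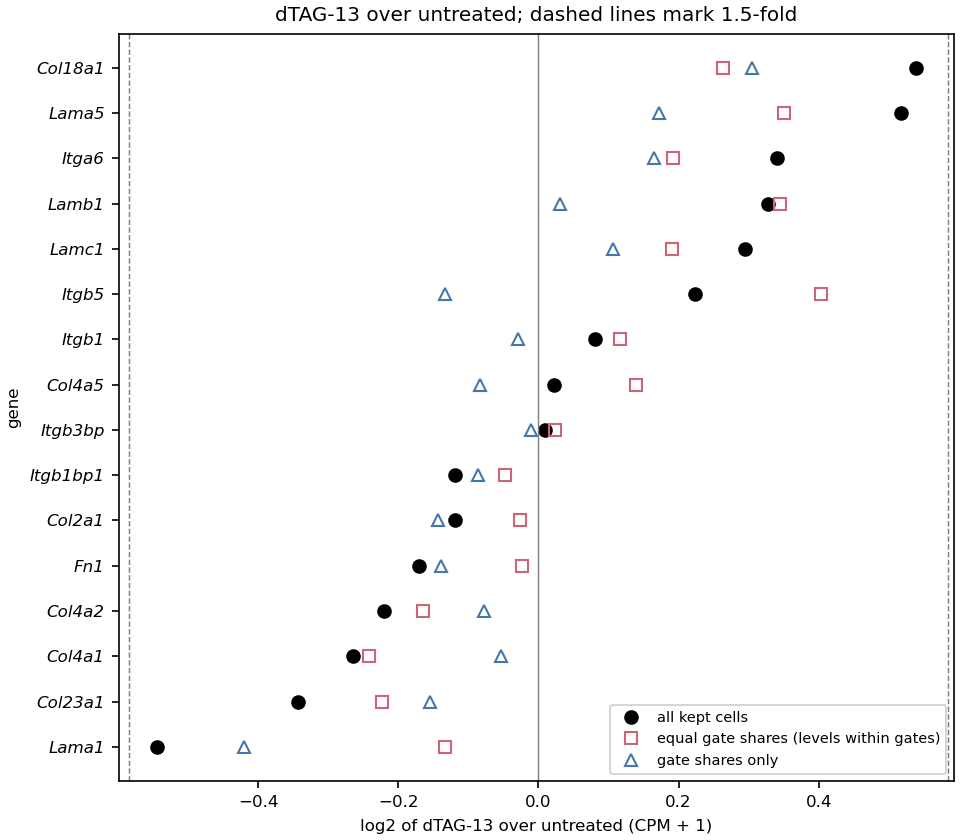
Log2 ratios of dTAG-13 over untreated (x axis, CPM plus 1) for the 16 members chosen by level (y axis). Black points are whole libraries, red squares equal gate shares and blue triangles gate shares alone, with dashed lines at 1.5-fold. Lama1 lies nearer its shares-alone value (-0.42) and Lamb1 nearer its equal-share value (0.35).

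Within single gates, members past 1.5-fold were set against all genes measured in the gate. In T, 8 of 49 members were higher (16.3%, against 7.70% of genes) and 4 lower (8.16%, against 2.39%). The higher ones included Col16a1 and Col9a3, both marked in the Foxa2 and Sox17 gates. All 5 markers of the Foxa2 gate were also higher in the T gate with dTAG-13, among them Shh at 1.63 against 7.84 CPM, Chrd at 2.97 against 6.91 and Foxj1 at 0.96 against 4.00, as were 3 of the 5 of the Sox17 gate, with Trh at 8.44 against 33.3 CPM, Cer1 at 0.29 against 2.92 and Foxa1 at 1.53 against 1.69. Their part in the T gate's matrix differences was not tested. In Foxa2, 2 of 48 were higher (4.17%, against 5.57%), Col18a1 and Col5a1, and 9 lower (18.8%, against 4.84%), the latter including Fn1, Col23a1, Col2a1, Col4a2 and Lama1. In Pim2, 3 of 43 were higher (6.98%, against 5.45%) and 8 lower (18.6%, against 3.83%). The Foxa2 gate also held 181 untreated and 465 dTAG-13 cells, and its notochord and node markers differed: Noto was 17.2 against 4.64 CPM, Nog 53.7 against 21.5 and Shh 19.6 against 11.4, while the cilia factor Foxj1 was 6.52 against 7.92. Their part in the Foxa2 gate's matrix differences was not tested.

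Counts for the other 7 gates follow. In Meox1, 1 of 55 was higher (1.82%, against 1.72%) and 3 lower (against 1.13%), namely Col1a1, Col1a2 and Itgb8. In Zfp42, 0 of 61 were higher (against 1.57%) and 2 lower (against 0.687%), Col3a1 and Col6a2, each on 11 UMIs untreated. In Sfn, 5 of 51 were higher (9.80%, against 4.46%), among them Itgb5 and Itga3, and 3 lower (against 3.51%). Sox2 had 3 of 57 higher (against 3.44%) and 2 lower (against 0.992%), T with Sox2 4 of 41 in each direction (against 7% and 3.34%), Tbx6 4 and 3 of 40 (against 4.77% and 5.61%), and Sox17 6 and 4 of 40 (against 5.96% and 4.94%).

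Promoters were read for every member found in a RefSeq table. ZEB proteins are known to bind the E-box CACCTG, which is CAGGTG on the other strand. The RefSeq promoter table (GRCm38.p6) matched 56 of the 79 members, with 61 entries. In the 250 bases before the start site, 10 of 61 entries held the motif on either strand (16.4%), as did 17.2% of all 32851 entries. The windows shown, with the motif in capitals, were picked by hand from those that overlap no annotated exon. They are Lama5, Itgb5 and Itgb1, each higher with dTAG-13 in 9 of 10 gates, and Col23a1, lower in 9 of 10. The interval of Col23a1 lay below 0 in 1 gate. The Lama5 window (chr2:180225860-180226109, minus strand) holds it 246 and 186 bases before the start site, and the Itgb5 window (chr16:33829415-33829664, plus strand) 109 bases before. It is not in the windows of Itgb1 (chr8:128685404-128685653, plus strand) and Col23a1 (chr11:51289670-51289919, plus strand).
Lama5: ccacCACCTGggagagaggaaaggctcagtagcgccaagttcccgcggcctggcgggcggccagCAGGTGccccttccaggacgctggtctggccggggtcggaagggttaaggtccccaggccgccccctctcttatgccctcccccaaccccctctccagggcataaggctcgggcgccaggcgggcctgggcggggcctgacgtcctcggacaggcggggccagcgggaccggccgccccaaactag
Itgb5: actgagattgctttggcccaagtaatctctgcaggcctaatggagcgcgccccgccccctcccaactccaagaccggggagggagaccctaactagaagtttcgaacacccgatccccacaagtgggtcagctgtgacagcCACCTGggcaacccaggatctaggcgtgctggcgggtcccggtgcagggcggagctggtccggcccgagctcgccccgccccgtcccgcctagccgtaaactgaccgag
Itgb1: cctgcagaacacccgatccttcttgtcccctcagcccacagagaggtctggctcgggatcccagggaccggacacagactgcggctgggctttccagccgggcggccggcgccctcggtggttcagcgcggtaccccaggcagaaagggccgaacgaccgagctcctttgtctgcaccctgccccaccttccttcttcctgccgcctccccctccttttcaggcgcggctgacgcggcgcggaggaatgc
Col23a1: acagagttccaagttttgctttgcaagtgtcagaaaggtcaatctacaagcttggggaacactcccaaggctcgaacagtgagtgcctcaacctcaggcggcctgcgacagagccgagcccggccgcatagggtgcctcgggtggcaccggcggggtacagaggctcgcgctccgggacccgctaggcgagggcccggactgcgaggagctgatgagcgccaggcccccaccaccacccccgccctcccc
A match describes letters in a window and is no evidence of binding. Of the members past 1.5-fold over whole libraries, Itgb8 (lower in 9 of 10 gates) and Col16a1 (higher in 8 of 9) held 1 site. Itga3 (higher in 9 of 9) held 1 in only 1 of its entries, and Col6a3 (higher in 3 of 3) held 0. Gates counted are those with at least 10 UMIs of the gene. Itga9, marked in Meox1, held 2 sites. None lay in the windows of Col4a1 (lower in 9 of 10 gates), Col4a2 (lower in 8) or Lamb1 (higher in all 10).

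The other genes of the matrix system were read from 6 lists, beside the 2.32% of all genes at least 1.5-fold higher and 0.832% lower. Basement membrane partners had a median log2 ratio of 0.17 over 14 genes, with 1 at least 1.5-fold higher and 0 lower. That was Hspg2, which encodes perlecan, at 9.51 against 14.8 CPM (0.59), with 0.51 at equal gate shares. Frem2, of the Fraser complex, was 13.2 against 20.0 CPM (0.57), the integrin ligand Npnt 3.89 against 5.996 CPM (0.52), and Smoc2 6.97 against 10.1 CPM (0.48). Matrix receptors other than integrins had 2 of 10 higher and 0 lower. Bcam, a receptor for laminin alpha 5, was 4.45 against 10.0 CPM (1.02, 1.04 to 1.31), with 0.73 at equal gate shares. The syndecan Sdc4, marked in Zfp42, was 35.3 against 57.1 CPM (0.68), with 0.24 at equal gate shares and 0.40 from shares alone. Dag1, dystroglycan, was 58.4 against 87.1 CPM (0.57) and Cd44 2.28 against 1.66 CPM (-0.30).

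Interstitial matrix genes had a median of -0.06, with 0 of 16 past 1.5-fold in either direction. Vcan, the large proteoglycan versican, was 131 against 96.9 CPM (-0.43), the fibrillin Fbn2 24.6 against 16.8 CPM (-0.52), Emilin1 2.64 against 1.80 CPM (-0.38) and Dcn 0.88 against 1.68 CPM (0.51). Of these 16 genes, 5 were marked in the Meox1 gate, against 1.39% of all genes. Collagen folding and processing genes had a median of 0.0013 with 0 of 20 past 1.5-fold. The lysyl oxidase relatives Loxl3 and Loxl2 had ratios of 0.30 and 0.29 (22.0 against 27.2 CPM for Loxl2), the procollagen protease Bmp1 -0.26, and the collagen chaperone Serpinh1, marked in Meox1, -0.24 (112 against 94.6 CPM). Matrix proteases and inhibitors had 0 of 13 past 1.5-fold (median 0.02, with Mmp16 at -0.54, Timp3 at -0.42, Mmp11 at 0.33 and Timp1 at 0.29). Of 15 integrin adaptors 1 was higher, the epithelial kindlin Fermt1, at 4.77 against 8.01 CPM (0.64). Its ratio was 0.19 at equal gate shares and 0.47 from shares alone. Fermt1 was marked in Sfn (13.4 and 15.8 CPM), but stood at 22.2 and 15.7 CPM in Foxa2 and 17.1 and 13.1 CPM in Sox17. The ratios of Tns3, Zyx and Lims1 were 0.31, -0.23 and -0.21.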

How the data were processed

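The deposited values are raw counts of UMIs per gene and cell barcode (10x Genomics 3' libraries), made with Cell Ranger 6.1.2, per the file headers, on the mm10 build, per the submitters' processing notes. Whether counting used strand is not stated in the sources here, and reads of overlapping genes may be shared. A UMI counts 1 transcript end, so no length scaling was used. Matrices held 7276 and 7873 barcodes.

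Barcodes with under 1000 genes or over 10% mitochondrial UMIs were removed (630 untreated and 693 dTAG-13). The doublet caller Scrublet (scanpy 1.11.5) marked 1 and 0 barcodes, which is too few to be credible, so those with the highest scores were removed at 0.8% per 1000 barcodes (424 and 496). Counts were summed over kept cells and over gates, scaled to CPM, and compared as log2 ratios with 1 CPM added. Intervals are 95% exact Poisson (levels) or exact conditional (ratios, without the added CPM, so that a ratio of a scarce gene can lie outside its interval) and cover counting error only. Equal-share ratios weight the 10 gate profiles by the mean gate share of both libraries. Ratios, gates and intervals were tested on simulated data. Alternatives were edgeR 4.0.16 TMM and DESeq2 1.42.0 scaling, other count limits, priors, cell filters and gate rules. Positions are from GENCODE on GRCm38.

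Members, lists and gates were chosen with earlier results of these data known. Members are given with values where they had at least 10 CPM in a library, or 50 CPM in a gate of at least 100 cells in both libraries (16 genes). Other members named, those marked in a gate or past 1.5-fold or paired with these, were chosen after their values were seen. One counted member is not reported here. From each other list up to 4 genes with the largest ratios are named, and Thbd, Pth1r, Afp and the Foxa2 gate's markers come from fixed marker lists.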

Additional observations from a re-analysis of the deposited data

Results flagged for a closer look

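For 6 members the dTAG-13 library was at least 1.5-fold higher than untreated in one gate and at least 1.5-fold lower in another, with both counting intervals clear of 0. The difference between gates was not tested, and several rest on few UMIs. The log2 ratio of Lama1 was 0.94 in Sox17 and -0.78 in Foxa2, a difference of 1.72. Col4a5 had 0.60 in T with Sox2 and -0.93 in Sox17, 1.53 apart. For Col2a1 the ratios were 0.67 in Pim2 and -0.62 in Foxa2, 1.29 apart. Col5a1 stood at 0.84 in Foxa2 and -0.79 in Pim2, 1.63 apart. Col14a1 differed by 3.22, with 1.31 in Tbx6 (15 and 14 UMIs) and -1.91 in Pim2 (14 and 2 UMIs). Col6a2 differed by 2.04, with 1.45 in Sox17 (2 and 17 UMIs) and -0.59 in Zfp42 (11 and 4 UMIs).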

How the results depend on the processing

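The scaling, count limit, added CPM and cell filters were varied in 8 settings, and gate rules in 4 more. Of the 16 members chosen by level, 15 kept their side of 1.5-fold in all 8 settings, and Lama1 passed it with DESeq2 size factors (-0.59). The number of members lower over whole libraries was then 5 instead of 3. Adding 5 CPM left 0 members higher and 0 lower, over whole libraries and with equal gate shares, and 8 marked instead of 25. Equal gate shares, with 1 member higher and 1 lower, gave 2 higher with gates at 3 UMIs, 2 and 2 with cells of more than 1 gate left out, and 7 and 3 with cells thinned to 5000 UMIs, where gates shrank to as few as 8 cells (T with Sox2, dTAG-13). Marked members numbered 21 to 35 in the settings other than the added 5 CPM, the highest in thinned cells, where 18.04% of all genes were marked. In the Meox1 gate 8 to 11 of its 11 marked members were marked again in those settings, as were 3 to 7 of 7 in Sox17 (3 in thinned cells), 2 to 4 of 4 in Tbx6, 1 to 4 of 4 in Zfp42 (1 with gates at 1 UMI and with cells of more than 1 gate left out), 2 of 2 in T, 1 to 2 of 2 in Foxa2 and 0 to 1 of 1 in both Sfn and T with Sox2. Low counts limit the members below 1 CPM. No paired analysis was possible because each group had 1 library, which also leaves no library to leave out.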
